A study of Mus musculus with 45 samples.

Results

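The chemokine genes Ccl17 and Ccl22, which encode ligands of the receptor CCR4, were followed across 45 arrays of mouse muscle macrophages in 18 groups. They are 2 of the 19752 genes read from these arrays, chosen by name, and each was taken from the probe set with its symbol alone and the highest mean over all arrays. Each had 1 such probe set, so the choice by level selected nothing. The pair was picked with earlier results of these data known, among them the higher Ccl17 level of DTR+ MHCII+ macrophages in the 24 h day 7 set. That difference and those built from it are therefore given as a description with no test. So is the Ccl17 difference between subsets in the same DTR+ mice. Every other p-value below belongs to genes chosen in this way.

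The macrophages came from skeletal muscle of male C57Bl6 mice, most of them injured with cardiotoxin, a snake toxin that kills muscle fibres and starts their regeneration. DTR+ mice carry Foxp3.DTR, a receptor for diphtheria toxin (DT) driven by Foxp3 and so made by regulatory T cells, which the toxin then kills. DTR- mice lack it. Cells were gated as Ly6g- CD11b+ F4-80+ and are split here into MHCII+ and MHCII- by the sample titles.

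At day 0, before injury, 2 MHCII+ and 2 MHCII- arrays came from DTR- mice 10 weeks old. At day 1, with 24 h of DT in the titles, there were 2 arrays of each genotype and subset from mice 8 weeks old, and at day 4 there were 2 arrays of each subset from DTR- mice 8 weeks old. Day 7 was sampled in 3 sets. The 24 h set, from mice 8 weeks old, had 2 DTR+ and 4 DTR- MHCII+ arrays and 3 DTR+ and 3 DTR- MHCII- arrays. The 8 h set, from mice 12 weeks old, had 3 DTR+ and 3 DTR- MHCII+ arrays and 3 DTR+ and 4 DTR- MHCII- arrays. The last set, from mice 10 weeks old, had 2 DTR+ and 2 DTR- MHCII+ arrays with no DT time in the titles, and is called the untimed set. The labels state neither the moment from which the 8 h and 24 h count nor whether the untimed mice received DT. The gate of day 1, day 4 and the 8 h set also left out SiglecF+ cells.

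Expression is given as log2 of the deposited intensity, and differences are log2 differences ± SE. Most samples titled MHCII+ are given as MHCII- in another field of the labels, so the titles were checked: H2-Ab1, a class II gene, lay at 13.67 to 14.01 in the 24 MHCII+ arrays and at 7.81 to 12.45 in the 21 MHCII- arrays. Adgre1, which encodes F4/80, was high in both, at 12.40 to 13.24 where titled MHCII+ and at 12.56 to 13.13 where titled MHCII-. The genotype cannot be checked on these arrays. Foxp3 stayed at or below 7.64 in every array, close to or under the level used as a filter (7.57, the median of all values). Of the arrays, 2 stood apart in other cell types' genes. Replicate 1 of the DTR+ MHCII+ macrophages of the 8 h set had a mean of 9.68 over 9 T cell genes, against 8.10 and 8.15 in the other replicates. Replicate 1 of the day 0 MHCII- macrophages had a mean of 9.62 over 11 neutrophil genes, against 7.15 in replicate 2. Nothing in the labels ties the samples of a group to different mice. The p-values therefore rest on sample-to-sample spread alone, which may be technical.

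CCL17 (TARC) and CCL22 (MDC) are CC chemokines made by macrophages and dendritic cells. They attract cells that carry CCR4, above all regulatory T cells and T helper type 2 cells, so their source in an injured tissue is one route by which regulatory T cells are drawn in. In macrophages and dendritic cells both genes are known to respond to IL-4 through STAT6 and to GM-CSF through IRF4, and NF-kB also acts on them.

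Both genes lie on mouse chromosome 8. In RefSeq's annotation of GRCm38.p6, Ccl22 spans chr8:94745684-94751388 and Ccl17 spans chr8:94809380-94812038. Their spans are separated by 57991 bases that hold Cx3cl1, the fractalkine gene. Because the pair moved together in the arrays (below), the 250 bases before the RefSeq transcription start of each are shown from the plus strand, which is the coding strand of both. Ccl17's window is chr8:94810203-94810452, inside its annotated span, which starts further upstream; Ccl22's is chr8:94745434-94745683. Capitals mark matches to 3 short patterns: STAT6-type (TTC and GAA with any 4 bases between), NF-kB-type (GGG and CC with any 5 bases between) and IRF-type (GAAA and GAAA with any 2 bases between). All were searched on both strands, and no marked matches overlap.

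Ccl17: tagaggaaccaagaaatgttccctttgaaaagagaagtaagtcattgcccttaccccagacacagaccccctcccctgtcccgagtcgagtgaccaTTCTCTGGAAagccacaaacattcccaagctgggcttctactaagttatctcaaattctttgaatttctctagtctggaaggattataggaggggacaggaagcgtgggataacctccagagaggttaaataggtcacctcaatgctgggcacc
Ccl22: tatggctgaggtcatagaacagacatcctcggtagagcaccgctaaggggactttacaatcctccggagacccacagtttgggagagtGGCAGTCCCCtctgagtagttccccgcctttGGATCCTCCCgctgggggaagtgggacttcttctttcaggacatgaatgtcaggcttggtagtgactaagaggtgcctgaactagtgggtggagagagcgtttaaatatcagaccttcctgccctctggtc

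The Ccl17 window held 1 STAT6-type match, TTCTCTGGAA, at bases -154 to -145 counted from the start. The Ccl22 window held 2 NF-kB-type matches on the minus strand, at -162 to -153 and -131 to -122. No match was shared between the windows and neither held the IRF-type letters. Among 32851 RefSeq promoter windows of the same length, 5.85% held the STAT6-type, 45.8% the NF-kB-type and 2.98% the IRF-type pattern. The matches describe these letters and do not mark sites of binding.

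Across the 45 arrays Ccl17 ran from 6.84 to 12.49 with a median of 8.39. Its group means spanned 5.46, and only 22 of the 11074 genes past the filter had a wider span. Ccl22 ran from 6.02 to 10.31 with a median of 7.67, its group means spanned 3.98, and 90 genes had a wider span. Both genes were thus among the most variable genes of these macrophages. Probe sets differ in brightness, so the levels of Ccl17 are not set against those of Ccl22.

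For Ccl17 the untimed DTR+ MHCII+ macrophages stood highest at 12.39 ± 0.15 (SD, n = 2), followed by the uninjured MHCII+ macrophages of day 0 at 11.91 ± 0.08 (SD, n = 2). The 24 h DTR+ MHCII+ group (10.93 ± 0.75, SD, n = 2) and both day 1 MHCII+ groups (10.31 ± 0.27 in DTR- and 10.29 ± 0.05 in DTR+ mice, SD, n = 2 each) came next and overlapped. A middle tier of 4 groups lay between 9.13 and 9.44: the 24 h DTR-, 8 h DTR+, day 4 DTR- and 8 h DTR- MHCII+ macrophages. The untimed DTR- macrophages were lowest of the MHCII+ groups at 8.16 ± 0.33 (SD, n = 2). All 8 MHCII- groups had means between 6.93 and 7.54, at or under the filter level. Of 17 steps between neighbours in this order, 6 were larger than the larger of the 2 SDs and 4 had ranges that did not overlap.

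The order of Ccl22 had the same 2 groups at the top. The untimed DTR+ MHCII+ macrophages were highest at 10.23 ± 0.11 and the day 0 MHCII+ macrophages second at 9.66 ± 0.11 (SD, n = 2 each). Then came 7 MHCII+ groups within a narrow band, from 8.72 in the 24 h DTR+ to 8.11 in the 8 h DTR- group, and the untimed DTR- MHCII+ group at 7.42 ± 0.36 (SD, n = 2). The 8 MHCII- groups lay between 6.25 and 6.51. Of 17 steps, 6 exceeded the larger SD and the same number had ranges apart; within the narrow band only the step between the 2 day 1 groups did.

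**Figure D1:**
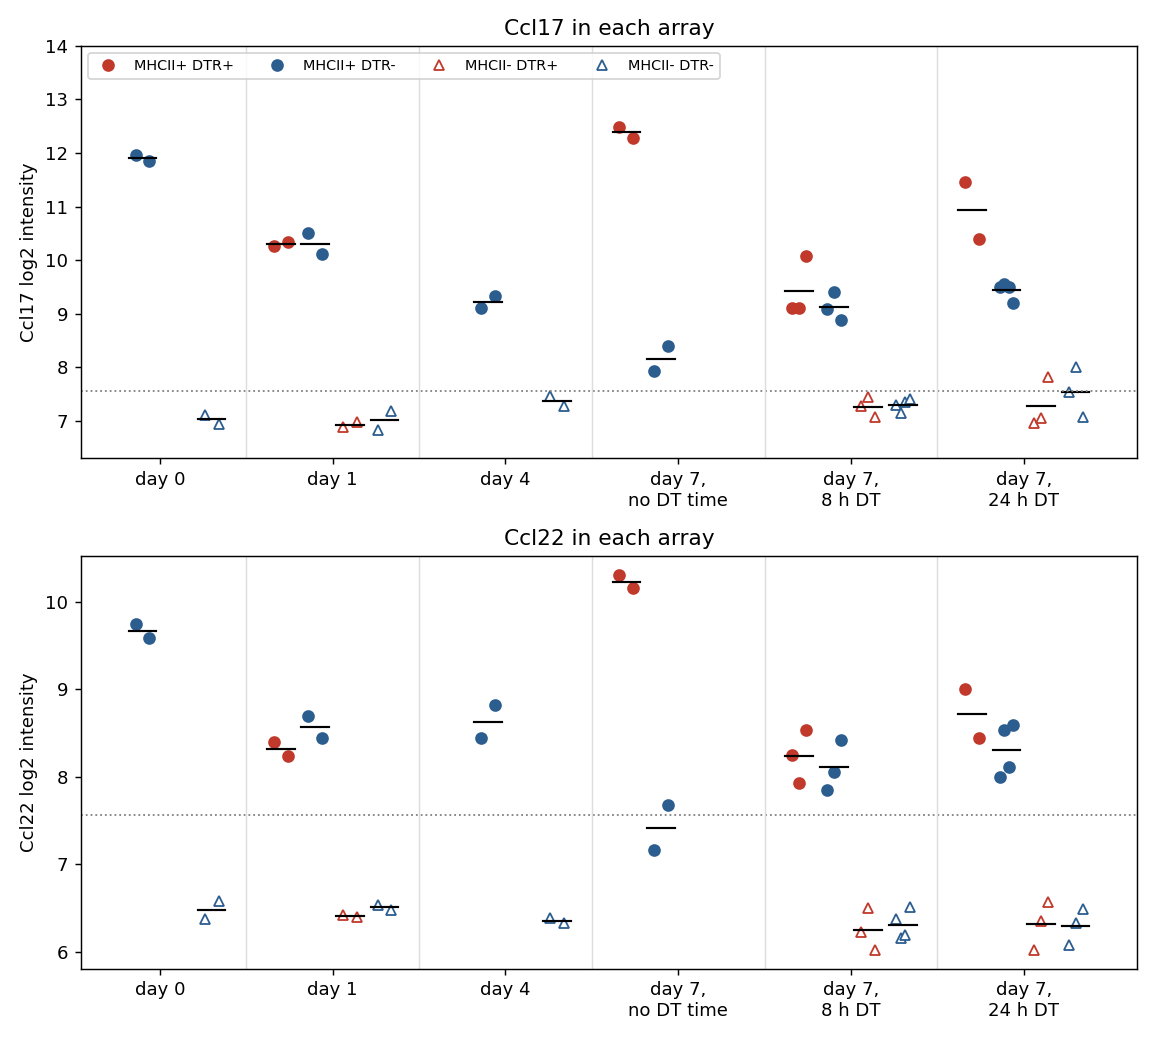
Log2 intensity of Ccl17 (top) and Ccl22 (bottom) in each of the 45 arrays by set, with filled circles for MHCII+ and open triangles for MHCII- macrophages, red for DTR+ and blue for DTR- mice, short lines for group means and a dotted line for the filter level of 7.57. The untimed DTR+ arrays (12.28 and 12.49 for Ccl17) and the day 0 MHCII+ arrays (11.85 and 11.96) stand above all other arrays, and the MHCII- arrays stay at the bottom throughout.

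Both ligands were genes of the MHCII+ subset. Ccl22 lay at 7.16 to 10.31 in the 24 MHCII+ arrays and at 6.02 to 6.58 in the 21 MHCII- arrays, and each MHCII+ array stood above each MHCII- array. Ccl17 ran from 7.92 to 12.49 in MHCII+ arrays, against 6.84 to 8.01 in the MHCII- ones, and 23 of 24 MHCII+ arrays stood above all MHCII- arrays. The exception was an untimed DTR- array, at 7.92. In bulk sorted samples, fewer cells that make a transcript and less of it per cell cannot be told apart.

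The difference between subsets was largest in uninjured muscle. At day 0 Ccl17 was 11.85 and 11.96 in MHCII+ arrays, against 6.95 and 7.10 in MHCII- arrays. That is a difference of 4.88 ± 0.30 (limma, adjusted p = 3.83e-14). Ccl22 was 9.58 and 9.75 in MHCII+ arrays, against 6.38 and 6.58 in MHCII- arrays, a difference of 3.19 ± 0.22 (limma, adjusted p = 7.87e-13). The groups did not overlap for either gene, as for 30.3% of all tested genes in this direction. In this comparison 19% of all tested genes passed (8.44% higher in MHCII+). The MHCII- levels lay under the filter level, and the intensities come with no detection call, so that such differences are of measured intensity and are given without a fold. Leaving out the MHCII- replicate rich in neutrophil genes gave 4.96 for Ccl17 and 3.09 for Ccl22.

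After injury the subsets still differed for both genes in each set. At day 1 in DTR- mice Ccl17 was 10.12 and 10.50 in MHCII+ arrays, against 6.84 and 7.19 in MHCII- arrays (3.30 ± 0.30, limma adjusted p = 8.61e-10), and Ccl22 was 8.44 and 8.69, against 6.48 and 6.53 (2.06 ± 0.22, adjusted p = 5.21e-08). At day 4 Ccl17 was 9.11 and 9.33 in MHCII+ arrays, against 7.27 and 7.46 in MHCII- arrays (1.86 ± 0.30, limma adjusted p = 1.10e-04), and Ccl22 was 8.44 and 8.82, against 6.33 and 6.38 (2.28 ± 0.22, adjusted p = 1.34e-08). At these times 2.45% and 2.12% of all genes passed, and no MHCII+ array overlapped an MHCII- array for either gene, as for 33.6% and 15.8% of all genes.

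In the DTR- mice of the 24 h set Ccl17 ran from 9.20 to 9.55 in MHCII+ arrays and was 7.08, 7.54 and 8.01 in MHCII- arrays, a difference of 1.90 ± 0.23 (limma, adjusted p = 6.03e-07). Ccl22 ran from 8.00 to 8.59 in MHCII+ arrays and was 6.07, 6.33 and 6.49 in MHCII- arrays, a difference of 2.01 ± 0.17 (limma, adjusted p = 3.44e-10). In this comparison 5.23% of genes passed. The 8 h set gave differences of 1.82 ± 0.23 for Ccl17 and 1.80 ± 0.17 for Ccl22 in DTR- mice, where 2.21% of genes passed (limma, adjusted p = 1.64e-06 and 5.27e-09). This fit did not use the pairing of these samples by replicate number. With the number as a block, both differences still passed.

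DTR+ mice showed the same direction in all 3 sets that had both subsets. Ccl17 was higher in MHCII+ than in MHCII- macrophages by 3.36 ± 0.30 at day 1, 2.16 ± 0.24 in the 8 h set and 3.65 ± 0.27 in the 24 h set. The differences for Ccl22 were 1.91 ± 0.22, 1.99 ± 0.18 and 2.41 ± 0.20 in the same order. The Ccl17 difference of the 24 h set uses the DTR+ MHCII+ arrays that led to the choice of the gene and is given with no test. The other differences all passed (limma, largest adjusted p = 2.54e-07, for Ccl22 at day 1), beside 2.26%, 7.98% and 1.37% of all genes. Across the 8 comparisons of subsets, both genes were higher in MHCII+ macrophages each time, with no overlap. The same lack of overlap was found for 25.5%, 9.78% and 10% of all genes in the DTR+ mice of day 1, the 8 h set and the 24 h set, and for 6.26% and 4.12% in the DTR- mice of the 8 h and 24 h sets. In the 8 h DTR+ mice, leaving out the MHCII+ replicate rich in T cell genes gave 2.33 for Ccl17 and 1.98 for Ccl22.

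**Figure D2:**
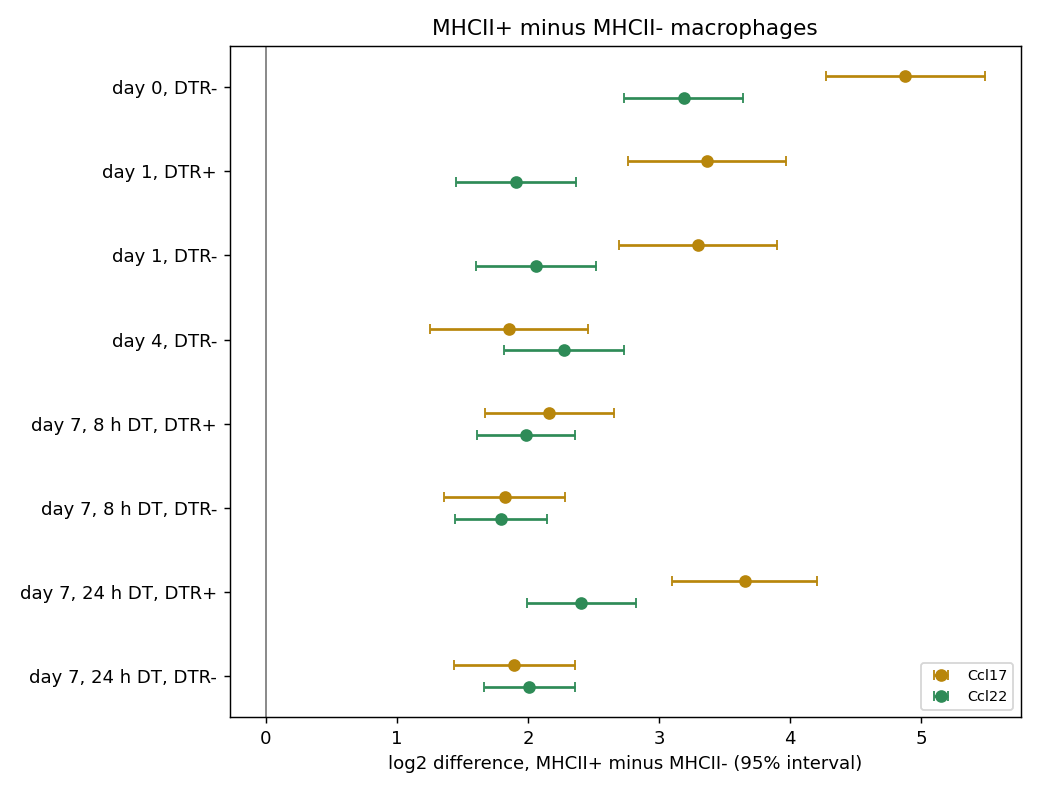
Log2 difference of Ccl17 (gold) and Ccl22 (green) between MHCII+ and MHCII- macrophages in each set and genotype, with bars for the 95% interval of the fit. Each of the 16 differences lies right of 0, from 1.80 for Ccl22 in 8 h DTR- mice to 4.88 for Ccl17 at day 0. The bar of Ccl17 in 24 h DTR+ mice is not to be read as a test, since its MHCII+ arrays led to the choice of the gene.

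Genes of dendritic cells were also higher in the MHCII+ subset. At day 0, where 8.44% of all genes were higher, 4 of 5 tested core dendritic cell genes were higher in MHCII+ macrophages and none lower (median difference 1.96, against -0.02 over all genes). Only 5 of the 9 genes of that list passed the filter, which a high level in MHCII+ macrophages alone can meet. This count and median can therefore lean toward that subset. Over all 9 genes the list mean was 8.16 to 8.23 in MHCII+ macrophages, against 6.91 to 6.93 in MHCII- ones. Flt3, the growth factor receptor of dendritic cells, was 8.63 in MHCII+ and 6.66 in MHCII- macrophages, whereas their transcription factor gene Zbtb46 was 7.95 and 7.69 and did not pass (limma, adjusted p = 0.26). Ccr7, the receptor with which dendritic cells leave for lymph nodes, was 11.21 in MHCII+ and 7.40 in MHCII- macrophages. In the 24 h DTR- mice, where 2.04% of all genes were higher, 3 of 5 core genes were higher, with list means of 7.61 to 7.79 in MHCII+ macrophages, against 7.18 to 7.26 in MHCII- ones. The part of dendritic cells in the Ccl17 and Ccl22 differences was not tested.

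The subset difference was smaller after injury, for Ccl17 at each time and for Ccl22 at day 1 and in the 24 h set. Compared with day 0, the Ccl17 difference changed by -1.58 ± 0.42 at day 1 (limma, adjusted p = 0.021), by -3.02 ± 0.42 at day 4 (adjusted p = 3.55e-05) and by -2.98 ± 0.37 in the 24 h set (adjusted p = 3.51e-06). For Ccl22 the changes were -1.13 ± 0.32 at day 1 (limma, adjusted p = 0.032), -0.91 ± 0.32 at day 4 (adjusted p = 0.14, not passed) and -1.18 ± 0.28 in the 24 h set (adjusted p = 0.0078). Over all genes 4.66%, 2.87% and 6.36% passed in the 3 comparisons, which share the day 0 arrays. The day 1 changes rested on few arrays. Leaving out any of 5 of the 8 arrays brought the adjusted p of the Ccl17 change at day 1 above 0.05 (all but day 0 MHCII- replicate 1, day 1 MHCII+ replicate 1 and day 1 MHCII- replicate 1), with values from -1.77 to -1.39 and adjusted p up to 0.12. For Ccl22 any of 6 arrays did so (all but day 0 MHCII- replicate 2 and day 1 MHCII+ replicate 1), with values from -1.25 to -1.002 and adjusted p up to 0.14. The Ccl22 change in the 24 h set missed the threshold without day 0 MHCII- replicate 1 (-1.08, adjusted p = 0.058).

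The time steps that passed were those of the MHCII+ subset. In MHCII+ macrophages of DTR- mice Ccl17 was 11.85 and 11.96 at day 0, 10.12 and 10.50 at day 1, 9.11 and 9.33 at day 4 and 9.20 to 9.55 in the 24 h set of day 7. It was lower at day 1 than at day 0 (difference -1.60 ± 0.30, limma adjusted p = 9.65e-05) and lower at day 4 than at day 1 (-1.09 ± 0.30, adjusted p = 0.010). The 24 h set and day 4 differed by 0.22 ± 0.26 (limma, adjusted p = 0.75, 95% interval -0.30 to 0.74). Over all genes 35.6% passed for day 1 against day 0, 15.4% for day 4 against day 1 and 2.46% for the 24 h set against day 4. The Ccl17 step between days 1 and 4 was -0.90 without day 1 replicate 1 (limma, adjusted p = 0.15) and -0.98 without day 4 replicate 2 (adjusted p = 0.13).

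Ccl22 passed only in the step from day 0 to day 1, with the 24 h set as day 7. In the same macrophages it was 9.58 and 9.75 at day 0, 8.44 and 8.69 at day 1, 8.44 and 8.82 at day 4 and 8.00 to 8.59 in the 24 h set. Day 1 was lower than day 0 (difference -1.10 ± 0.22, limma adjusted p = 2.98e-04) with no overlap, as for 37.6% of all genes in this direction. Days 4 and 1 differed by 0.06 ± 0.22 (limma, adjusted p = 0.90, 95% interval -0.40 to 0.52) and overlapped, and the 24 h set differed from day 4 by -0.32 ± 0.19 (adjusted p = 0.45).

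From day 0 to the 24 h set of day 7 the whole change in MHCII+ macrophages was -2.47 ± 0.26 for Ccl17 and -1.36 ± 0.19 for Ccl22 (limma, adjusted p = 1.03e-08 and 3.18e-06), in a comparison where 20.2% of genes passed. With the 8 h set in place of the 24 h set the changes were -2.78 and -1.56. Over all genes 3668 then passed, against 2233 with the 24 h set. With the untimed DTR- arrays as the day 7 group both genes were lower than at day 4. The differences were -1.06 for Ccl17 and -1.21 for Ccl22 (limma, adjusted p = 0.039 and 0.0011). In that comparison with day 4, 352 genes passed, against 272 with the 24 h set. In MHCII- macrophages neither gene passed in any of the 4 time comparisons, whose differences ran from -0.18 to 0.52. The MHCII- group means of both genes lay under the filter level, where a fall might not be seen. Over all genes 25.6%, 24.2%, 1.17% and 7.51% passed for day 1 against day 0, day 4 against day 1, the 24 h set against day 4 and the 24 h set against day 0. The largest of the MHCII- differences, Ccl17 in the 24 h set against day 0, was 0.74 with arrays weighted by quality and then passed (limma, adjusted p = 0.017). Time points also differed in age, days 1 and 4 in the gate, and day 1 and the 24 h set carry 24 h of DT in their titles where days 0 and 4 carry none. Day, age, gate and DT label cannot be told apart.

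Other genes moved along this course. Between the 24 h set and day 0 in MHCII+ macrophages, 10.3% of all genes were higher and 9.91% lower. Of 5 core dendritic cell genes, 4 were lower and 1 higher (median -0.82), with list means of 7.61 to 7.79 in the 24 h set and 8.16 to 8.23 at day 0. Irf4, the GM-CSF and IL-4 responsive factor, was 9.29 in the 24 h set and 10.45 at day 0 (limma, adjusted p = 2.52e-04), and 8 of 15 genes of the IL-4, IL-13, GM-CSF and STAT6-IRF4 list were lower and 1 higher (median -0.35). Skeletal muscle genes ran the other way, 9 of 11 being higher, with list means of 8.44 to 9.04 in the 24 h set and 7.74 to 8.05 at day 0. The median over all genes was -0.003. The part of these in the Ccl17 and Ccl22 changes was not tested.

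The effect of the genotype on both ligands was largest in the untimed day 7 set. Ccl17 was 12.28 and 12.49 in DTR+ arrays, against 7.92 and 8.39 in DTR- arrays. The difference was 4.23 ± 0.30, an 18.7-fold higher intensity (limma, adjusted p = 1.11e-12). Ccl22 was 10.15 and 10.31 in DTR+ arrays, against 7.16 and 7.67 in DTR- arrays, a difference of 2.81 ± 0.22 (limma, adjusted p = 2.49e-11). The genotypes did not overlap for either gene, as for 33.3% of all genes in this direction, with DTR+ the highest and DTR- the lowest of all MHCII+ groups. In this comparison 11.5% of all genes passed, 5.32% being higher and 6.2% lower in DTR+ macrophages. Leaving out 1 array at a time gave 3.99 to 4.46 for Ccl17 and 2.55 to 3.07 for Ccl22.

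In MHCII+ macrophages of the 24 h set Ccl17 was 10.40 and 11.46 in DTR+ arrays and ran from 9.20 to 9.55 in DTR- arrays. The DTR+ arrays lay above all 4 DTR- arrays, as for 5.82% of all genes, and the means differed by 1.49, or 2.81-fold, a description of the difference that led to the choice of the gene. This difference varied with single arrays, from 0.96 to 2.02 when 1 array was left out, and was smallest without DTR+ replicate 1. Ccl22 was 8.44 and 9.0002 in DTR+ arrays and ran from 8.00 to 8.59 in DTR- arrays, so that the genotypes overlapped, and the difference of 0.41 ± 0.19 did not pass (limma, adjusted p = 0.76, 95% interval 0.02 to 0.81). In this comparison 0.0542% of genes, 6 in number, passed.

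In MHCII- macrophages of the 24 h set Ccl17 was 6.96, 7.06 and 7.81 in DTR+ arrays and 7.08, 7.54 and 8.01 in DTR- arrays (difference -0.27 ± 0.24, limma adjusted p = 0.85). Ccl22 was 6.02, 6.35 and 6.57 in DTR+ arrays and 6.07, 6.33 and 6.49 in DTR- arrays (0.01 ± 0.18, adjusted p = 0.99). The genotypes overlapped for both genes, with group means under the filter level, in a comparison where 0.00903% of genes passed. With arrays weighted by quality the Ccl17 difference was -0.72 and passed (limma, adjusted p = 0.011). The Ccl17 genotype difference was 1.76 larger in MHCII+ than in MHCII- macrophages. It contains the difference that led to the choice of the gene, so it too is given with no test, and it was 1.22 to 2.29 when 1 array was left out.

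The 8 h set showed no genotype difference that passed. In MHCII+ macrophages Ccl17 was 9.10, 9.11 and 10.08 in DTR+ arrays and 8.88, 9.09 and 9.41 in DTR- arrays (0.30 ± 0.24, limma adjusted p = 0.49). Ccl22 was 7.93, 8.25 and 8.53 in DTR+ arrays and 7.85, 8.05 and 8.42 in DTR- arrays (0.13 ± 0.18, adjusted p = 0.72). The genotypes overlapped for both genes. The 95% intervals were -0.19 to 0.80 for Ccl17 and -0.25 to 0.50 for Ccl22. Without the DTR+ replicate rich in T cell genes the differences were 0.47 for Ccl17 and 0.12 for Ccl22, and without DTR+ replicate 4 both were -0.02. With arrays weighted by quality the Ccl17 difference was 0.69 and passed (limma, adjusted p = 0.016). In MHCII- macrophages the differences were -0.04 ± 0.23 for Ccl17 and -0.06 ± 0.17 for Ccl22. Over all genes 0.488% passed in MHCII+ and 0.0181% in MHCII- macrophages.

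At day 1 no genotype difference of either gene passed. Ccl17 was 10.26 and 10.33 in DTR+ MHCII+ arrays and 10.12 and 10.50 in DTR- MHCII+ arrays (-0.02 ± 0.30, limma adjusted p = 1.0). Ccl22 was 8.24 and 8.40 in DTR+ MHCII+ arrays and 8.44 and 8.69 in DTR- MHCII+ arrays; the arrays did not overlap, as for 17% of all genes in this direction, but the difference of -0.25 ± 0.22 did not pass (adjusted p = 1.0). In MHCII- macrophages the differences were -0.08 ± 0.30 for Ccl17 and -0.10 ± 0.22 for Ccl22, whose arrays again lay apart (6.40 and 6.43 in DTR+, 6.48 and 6.53 in DTR- mice), as for 13.8% of all genes. By limma 0% of genes passed in either subset, while 25 in MHCII+ and 154 in MHCII- macrophages had an unadjusted p under 0.05.

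The untimed effect was larger than that of each other set. For Ccl17 it exceeded the 8 h effect in MHCII+ macrophages by 3.93 ± 0.38 (limma, adjusted p = 5.66e-09) and the day 1 effect by 4.24 ± 0.42 (adjusted p = 1.18e-08). It exceeded the 24 h difference by 2.74, given with no test as above. For Ccl22 the excess was 2.40 ± 0.30 over 24 h, 2.68 ± 0.29 over 8 h and 3.06 ± 0.32 over day 1 (limma, adjusted p = 7.50e-07, 4.90e-08 and 3.12e-08). Over all genes 7.52%, 7.9% and 4.44% passed in these 3 comparisons, which share the untimed arrays and were added after the values had been seen. The 24 h and 8 h effects of the genotype on Ccl22 in MHCII+ macrophages differed by 0.28 ± 0.27 (limma, adjusted p = 0.66), in a comparison where 0% of genes passed by limma and 1319 had an unadjusted p under 0.05; for Ccl17 the difference was 1.19, with no test. The sets also differ in age, DT label and, for day 1 and 8 h, in the gate.

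**Figure D3:**
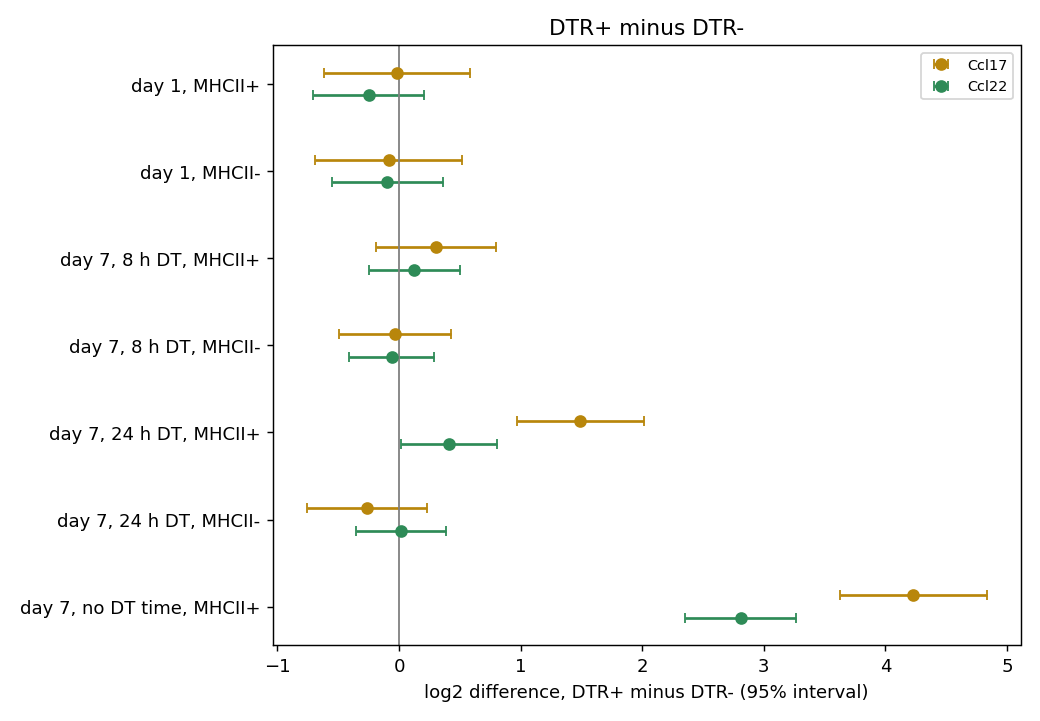
Log2 difference of Ccl17 (gold) and Ccl22 (green) between DTR+ and DTR- macrophages in each set and subset, with bars for the 95% interval of the fit. The untimed set stands apart at 4.23 for Ccl17 and 2.81 for Ccl22, Ccl17 in MHCII+ macrophages of the 24 h set is at 1.49, and all other differences lie between -0.27 and 0.41. The bar at 1.49 is not to be read as a test, since that difference led to the choice of the gene.

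Several gene lists, only some of them of pathways known to act on Ccl17 and Ccl22, were read beside the pair in the untimed set. In that set 5.32% of all genes were higher and 6.2% lower. Of 14 alternative activation genes, some of them induced by IL-4, 7 were higher and 2 lower in DTR+ macrophages. Their median was 0.38, against -0.01 over all genes. Chil3, a chitinase-like protein gene, was 12.18 in DTR+ and 5.44 in DTR- macrophages, Arg1 (arginase 1) was 13.07 and 6.89, and Pdcd1lg2, which encodes the PD-1 ligand PD-L2, was 11.92 and 6.23. These 3 genes had log2 differences of 6.74 ± 0.55, 6.18 ± 0.61 and 5.69 ± 0.17 (limma, adjusted p = 3.44e-11, 2.97e-09 and 9.17e-23), with DTR- levels under the filter level. The scavenger receptor gene Cd163 (8.15 in DTR+, 9.75 in DTR- macrophages) and the lectin gene Cd209a (9.22 and 10.91) were lower.

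Of 15 genes of the IL-4, IL-13, GM-CSF and STAT6-IRF4 list, 4 were higher in DTR+ macrophages and none lower (median 0.24). They were the cytokine feedback inhibitors Cish (10.76 in DTR+ and 7.95 in DTR- macrophages) and Socs1 (10.23 and 8.68), and Csf2rb and Csf2rb2, the shared GM-CSF receptor chain (12.22 and 11.38) and its IL-3 receptor relative (11.57 and 10.70). The receptor gene Il4ra (11.98 and 11.63), Stat6 (11.03 and 11.21) and Irf4 (9.99 and 9.66) did not pass (limma, adjusted p = 0.32, 0.39 and 0.53). Of 17 tested NF-kB subunits and targets, 2 were higher and 1 lower, beside 11.5% of all genes that passed. Of 17 tested genes induced by IFN-gamma, 13 were higher and none lower, with a median of 1.14. Among the other CC chemokines, 5 of 13 were higher and 1 lower. Ccl24, an eosinophil attractant, was 13.12 in DTR+ and 10.23 in DTR- macrophages and Ccl5 was 12.79 and 10.64.

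Markers of other cell types moved with the genotype in the untimed set too, again beside 5.32% of all genes higher and 6.2% lower. Skeletal muscle genes were lower in DTR+ macrophages for 9 of 11, with list means of 8.00 to 8.22 in DTR+ and 8.71 to 8.84 in DTR- arrays. Of 6 tested monocyte genes 3 were higher (Chil3 among them), with list means of 11.18 to 11.56 in DTR+ and 9.09 to 9.19 in DTR- arrays, and 3 of 6 endothelial genes were higher (7.52 to 7.66 in DTR+, 7.09 to 7.11 in DTR- arrays). Mature dendritic cell genes were higher for 5 of 13, with list means of 9.57 to 9.61 in DTR+ and 9.03 to 9.08 in DTR- arrays, but Ccr7 was 8.37 in DTR+ and 7.93 in DTR- macrophages and did not pass (limma, adjusted p = 0.63). Of the 5 core dendritic cell genes only Itgax (CD11c) was higher, and Flt3 was 6.51 in DTR+ and 6.87 in DTR- macrophages, below the filter level, and Zbtb46 was 7.45 in both; the list means were 7.52 to 7.54 in DTR+ and 7.37 to 7.44 in DTR- arrays. Of 7 type 1 dendritic cell genes 2 were higher and 2 lower. None of 6 class II genes passed, and 2 of 11 macrophage markers were lower. Of 6 T cell genes 2 were lower, Cd4 and Cd2, with list means of 7.71 to 7.73 in DTR+ and 7.99 to 8.06 in DTR- arrays. The part of these other cell types in the Ccl17 and Ccl22 differences was not tested.

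**Figure D4:**
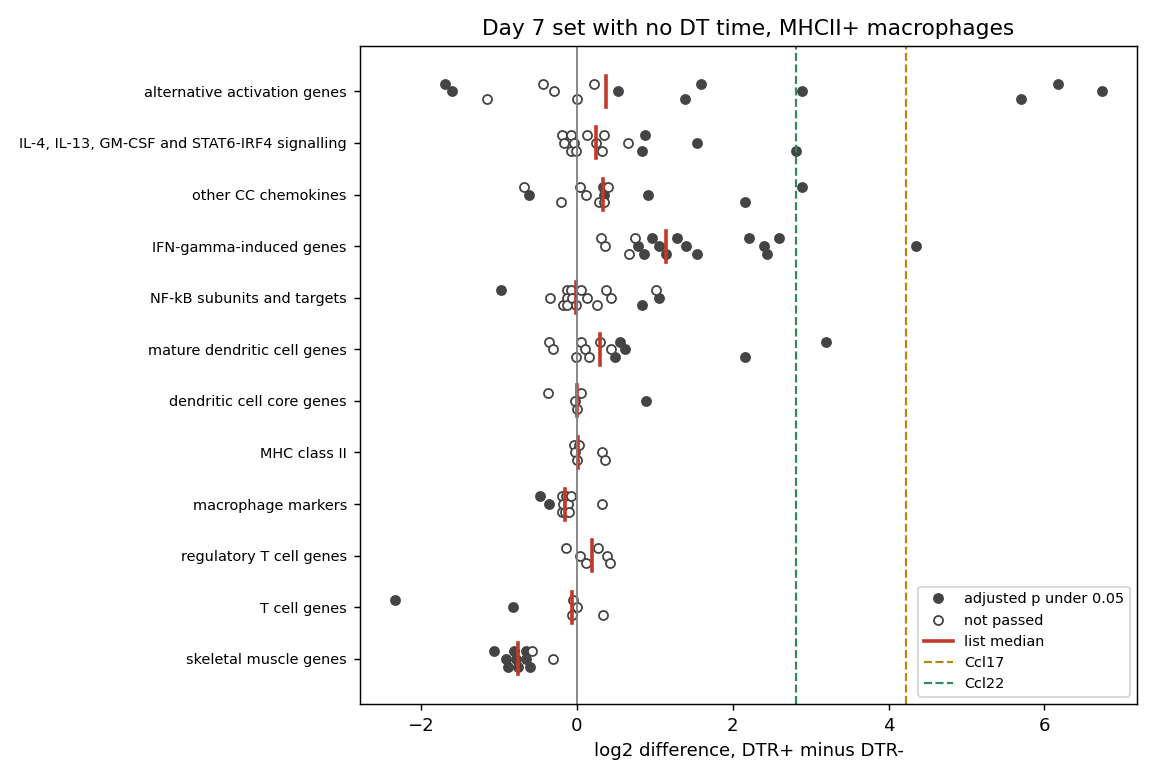
Log2 difference between DTR+ and DTR- MHCII+ macrophages of the untimed set for each tested gene of 12 lists, filled where the adjusted p was under 0.05, with red bars for list medians and dashed lines for Ccl22 (2.81, green) and Ccl17 (4.23, gold). Most lists centre near 0, IFN-gamma-induced genes have a median of 1.14 and skeletal muscle genes one of -0.75, and only Gbp4 among the IFN-gamma-induced genes and Chil3, Arg1 and Pdcd1lg2 among the alternative activation genes lie beyond Ccl17.

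In the MHCII+ macrophages of the 24 h set, where Ccl17 was higher in DTR+ arrays and Ccl22 did not pass, 1 of 15 genes of the IL-4, IL-13, GM-CSF and STAT6-IRF4 list passed, Socs1, at 9.48 in DTR+ and 8.92 in DTR- macrophages (limma, adjusted p = 0.045). None of 14 alternative activation genes passed (median 0.23, against 0.04 over all genes), and 3 of 17 IFN-gamma-induced genes were higher, in a comparison where 0.0542% of all genes passed. None of the 11 macrophage, 5 core or 13 mature dendritic cell, 6 T cell or 11 skeletal muscle genes passed. Mean levels of the core dendritic cell genes were 7.53 to 7.72 in DTR+ and 7.61 to 7.79 in DTR- arrays.

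The receptor gene of the pair did not pass the filter in these sorted cells. Ccr4 lay between 6.00 and 6.67 in 44 of 45 arrays and at 7.95 in the remaining one, the 8 h DTR+ MHCII+ array rich in T cell genes. Its group means stayed under the filter level, as did those of Ackr2, a scavenging receptor for CC chemokines (6.97 to 7.53 over all arrays). Neither was tested. Dpp4, a peptidase that trims CCL22, passed the filter and was higher in the MHCII+ subset, at 9.19 in MHCII+ and 6.54 in MHCII- macrophages of day 0, but in the untimed set it was 7.36 in DTR+ and 7.30 in DTR- macrophages (limma, adjusted p = 0.95). In the 8 h array rich in T cell genes Ccl17 was 9.10 and Ccl22 was 8.25, within the range of the other 8 h arrays.

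Over the 18 group means Ccl17 and Ccl22 had the highest Pearson correlation with each other of 10480 named genes (r = 0.97). Spearman's rho was 0.84, by which Ccl22 stood at place 31 for Ccl17 and Ccl17 at place 32 for Ccl22. Within groups, the deviations of the 45 arrays from their group means correlated at 0.45, at places 26 and 72. These values describe arrays that share a normalization, a laboratory series and, in most groups, the MHCII split. After Ccl22, the genes closest to Ccl17 were Rras2, Dcstamp, Naaa, Klrk1, Tnip3, Cd226 and Slc2a6 (r = 0.93 to 0.95). Those closest to Ccl22 after Ccl17 were Naaa, Klrk1, Tnip3, Klrb1b, Slc2a6, Rras2 and Dcstamp (r = 0.94 to 0.96), so 6 of the 7 names recur. By Spearman's rho, 5 of the 8 closest genes of Ccl17 and 2 of the 8 of Ccl22 stayed on the list.

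Several of these neighbours in pattern have known roles. Dcstamp, a fusion protein of dendritic cells and osteoclasts, was 10.28 in untimed DTR+ and 8.41 in untimed DTR- macrophages, and at day 0 it was 9.58 in MHCII+ and 6.29 in MHCII- macrophages. Klrk1, which encodes the receptor NKG2D, was 9.22 in untimed DTR+ and 7.08 in untimed DTR- macrophages, and 8.99 in MHCII+ and 5.65 in MHCII- macrophages of day 0. Naaa, a lysosomal amidase gene, was 13.23 in untimed DTR+ and 12.25 in untimed DTR- macrophages, and 13.13 in MHCII+ and 11.99 in MHCII- macrophages of day 0. In Tnip3, which encodes an inhibitor of NF-kB signalling, day 0 MHCII+ macrophages stood above the untimed DTR+ ones, unlike in the pair. Tnip3 was 12.27 in untimed DTR+ and 10.69 in untimed DTR- macrophages, and 12.50 in MHCII+ and 8.75 in MHCII- macrophages of day 0. Naaa also stands in the type 1 and Tnip3 in the type 2 dendritic cell list, and Klrk1 is the 1 natural killer cell gene past the filter. Of the regulators, Irf4 correlated with Ccl17 at 0.77 and with Ccl22 at 0.76, and Stat6 at -0.13 and -0.17. The receptor gene Ccr7 correlated at 0.77 and 0.81 and the class II gene H2-Ab1 at 0.71 and 0.70, all over the 18 group means.

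**Figure D5:**
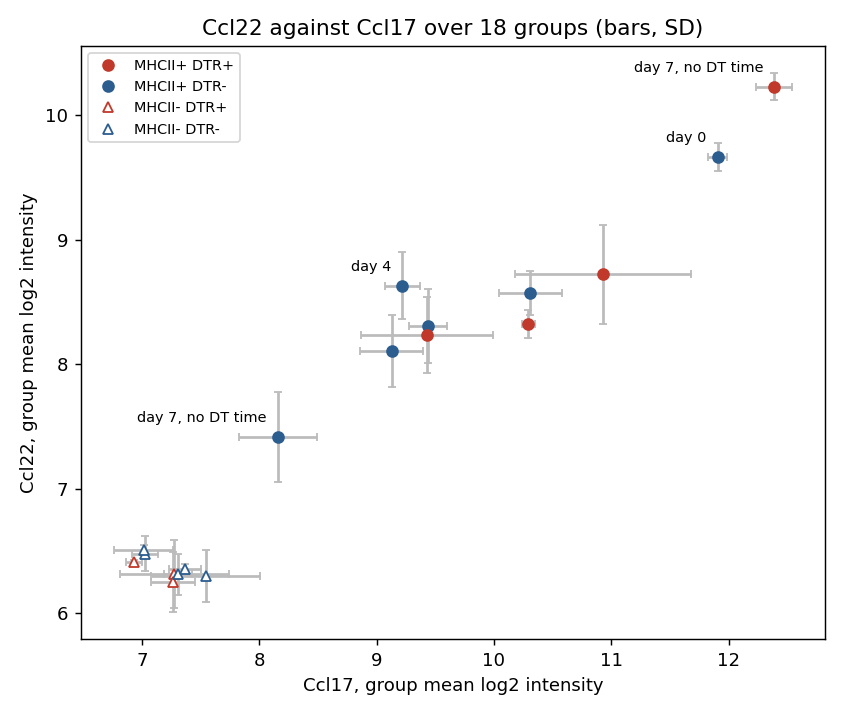
Group means of Ccl22 against those of Ccl17 for the 18 groups in log2 intensity, with bars for the SD over arrays, filled circles for MHCII+ and open triangles for MHCII- macrophages, red for DTR+ and blue for DTR- mice. The MHCII- groups crowd at the lower left, the untimed DTR+ and day 0 MHCII+ groups stand at the upper right, and the day 4 MHCII+ group (9.22 and 8.63) lies above groups with a like Ccl17 level.

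The other genes of the chromosomal stretch varied far less between groups. Cx3cl1, between the pair, stayed between 7.08 and 7.91 in all arrays, with group means that spanned 0.59, although it correlated with Ccl17 at 0.78 and with Ccl22 at 0.79. The nearest 5 measured genes on each side, from Cpne2 to Pllp before Ccl22 and from Ciapin1 to Ccdc102a after Ccl17, had group means that spanned 0.37 to 0.92, against 5.46 for Ccl17 and 3.98 for Ccl22. Of these 10 genes, Ccdc102a correlated with Ccl17 at 0.74 and with Ccl22 at 0.79, Ciapin1 at 0.53 and 0.38, and the other 8 between -0.32 and 0.20.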

How the data were processed

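Macrophage RNA from 45 samples was hybridised to Affymetrix Mouse Gene ST arrays. The authors deposited 1 normalized intensity per probe set on a linear scale; per the submitters' processing notes, Affymetrix Power Tools and RMA were used, with versions not given in the sources used here. The deposited intensities ran from 9.43 to 24649, with array medians of 174.7 to 203.7, and their log2 was taken. The number of arrays limits the precision.

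Of 24922 probe sets, 21425 carried 1 gene symbol in the platform annotation, 1399 several and 2098 none listed. Each of 19752 genes took its probe set with the highest mean. Groups came from the sample titles. limma 3.58.1 in R 4.3.3 fitted 1 mean per group over all arrays (eBayes with trend), on 11074 genes with a mean of at least 7.57 in 1 group or more. Benjamini-Hochberg adjustment ran over all of them, and adjusted p under 0.05 passed. The code was tested on simulated data.

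Ccl17, Ccl22 and all gene lists were chosen with earlier results of these data known. Other named genes are the 8 with the highest Pearson correlation of group means with each member. Also named are up to 4 members of each described list with the smallest p. So are chromosomal neighbours and a fixed set of regulators, receptors and markers. Zbtb46, Cd163 and Il4ra were named after their values were seen. Same-numbered arrays of the 2 subsets deviated together in the 8 h DTR- mice (r = 0.48 to 0.58 over 3 pairs), but not in every pair of the 24 h DTR- mice (-0.02 to 0.36), so the numbers were taken to pair samples in the 8 h DTR- mice. The main fit did not use these pairs. The other sets share 1 or 2 numbers, too few for this check (r = -0.26 to 0.53). Alternatives were the filter, quantile normalization, a pseudocount of 32, array weights, a fit on the compared arrays only, the replicate block, another day 7 set and leaving out each array. Promoter windows are RefSeq's, build GRCm38.p6.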

Additional observations from a re-analysis of the deposited data

Results flagged for a closer look

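Both genes were checked for single samples that stand apart in the 2 groups of 4 arrays, 4 checks in all. In the DTR- MHCII+ macrophages of the 24 h set Ccl17 was 9.20 in replicate 4, apart from 9.49 to 9.55 in the other replicates. The gap made up 0.84 of the group's range. Chance flags about 1 in 20 such checks.

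Of 17 differences between effects that were tested, 10 passed. The difference between subsets was smaller than at day 0 for Ccl17 at day 1 (-1.58), at day 4 (-3.02) and in the 24 h set (-2.98), and for Ccl22 at day 1 (-1.13) and in the 24 h set (-1.18). These 5 share the day 0 arrays, and the day 1 changes rested on few arrays, as given above. Over all genes 4.66% passed at day 1, 2.87% at day 4 and 6.36% in the 24 h set. The effect of the genotype in the untimed set exceeded that of the 24 h set by 2.40 for Ccl22, that of the 8 h set by 3.93 for Ccl17 and 2.68 for Ccl22, and that of day 1 by 4.24 and 3.06. These 5 share the untimed arrays and were added after the values had been seen. Over all genes 7.52% passed against the 24 h set, 7.9% against the 8 h set and 4.44% against day 1.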

How the results depend on the processing

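Of 444 values for the 66 Ccl17 and Ccl22 results under alternatives other than leaving out an array, 430 kept direction and call or, where no test was made, moved by less than the SD between replicates. These include all under no filter, a stricter filter, log2(value + 32) and the fit on the compared arrays only. Array quality weights let 3 Ccl17 differences pass: -0.72 for the genotype in 24 h MHCII-, 0.69 for it in 8 h MHCII+ and 0.74 for the 24 h set against day 0 in MHCII- macrophages. Over all genes 880, 2103 and 2887 passed in these 3 comparisons with the weights, against 1, 54 and 832 in the main fit. The weights also moved the untested excess of the 24 h Ccl17 genotype difference to 2.22 over MHCII- and to 0.81 over the 8 h set. With the untimed DTR- arrays as day 7, 352 genes passed for the change from day 4, against 272 in the main fit. That change was -1.06 for Ccl17, turned from 0.22, and -1.21 for Ccl22. The sign turned in 7 more, none of which passed either way. Quantile normalization gave -0.019 for Ccl22 by genotype in 24 h MHCII-, 0.0012 for Ccl17 in 8 h MHCII- and 0.053 for Ccl17 at day 1 against day 0 in MHCII- macrophages. With the 8 h set as day 7, Ccl17 against day 4 was -0.090 in MHCII+ and -0.059 in MHCII- macrophages. The causes were not tested.

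With the replicate number as a block, all 36 results that could be fitted kept their side of the threshold. The numbers were taken to pair samples only in the 8 h DTR- mice, and DTR+ and DTR- arrays of 1 number cannot come from the same mouse. For results other than the 8 h DTR- subset differences the block is thus arbitrary and says nothing about pairing. The genotype differences of Ccl22 turned to -0.049 in 8 h MHCII+ and to 0.0088 in 8 h MHCII- macrophages, and that of Ccl17 in 8 h MHCII+ was 0.12. Leaving out 1 array gave 0.96 to 2.02 for Ccl17 by genotype in 24 h MHCII+ macrophages, 1.22 to 2.29 for its excess over MHCII-, 0.65 to 1.72 for that over the 8 h set and 2.20 to 3.27 for the untimed excess over it. It gave -1.77 to -1.39 for the Ccl17 and -1.25 to -1.002 for the Ccl22 subset change at day 1, -1.29 to -1.07 for the Ccl22 subset change in the 24 h set and -1.28 to -0.90 for Ccl17 at day 4 against day 1. Signs turned in results that did not pass. By genotype, Ccl22 gave -0.11 to 0.16 in 24 h MHCII-, -0.021 to 0.28 in 8 h MHCII+ and -0.19 to 0.051 in 8 h MHCII- macrophages. Ccl17 gave -0.023 to 0.47 in 8 h MHCII+, -0.13 to 0.060 in 8 h MHCII-, -0.21 to 0.17 in day 1 MHCII+ and -0.26 to 0.091 in day 1 MHCII- macrophages. The 24 h less the 8 h effect in MHCII- macrophages was -0.498 to 0.003 for Ccl17 and -0.050 to 0.22 for Ccl22. Over time, Ccl22 gave -0.13 to 0.25 for day 4 against day 1 in MHCII+, and in MHCII- macrophages -0.068 to 0.13 for day 1 against day 0 and -0.15 to 0.057 for the 24 h set against day 4; Ccl17 gave -0.19 to 0.16 and -0.053 to 0.41 for the same 2 steps in MHCII- macrophages. Averaging probe sets was not run, since each gene has 1.

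Counts over all genes moved more. The untimed genotype comparison called 1276 genes, 4278 with array weights, 3919 on the compared arrays only and 567 to 875 without 1 array. The 24 h MHCII+ comparison called 6, and 3 with no filter, 2 after quantile normalization, 1 with array weights, 0 by limma on the compared arrays only (200 at an unadjusted p under 0.05) and 0 to 10 without 1 array, the 0 being without DTR+ replicate 1 (1194 unadjusted). Over all 33 comparisons, the count moved by over 1.5 times in 22 with array weights and in 22 on the compared arrays only. The other limits are groups of 2 to 4 arrays, and Ccl17 and Ccl22 levels in MHCII- macrophages near or under the median of all values.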
